A study of Homo sapiens with 4 samples.

Results

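The unfolded protein response and the amino acid response were compared between a vector control clone (vec) and a plakophilin3 (PKP3) knockdown clone (shpkp3-2) of HCT116, an established colorectal carcinoma cell line. PKP3 is a desmosomal plaque protein. As both clones were grown in an inhibitor of translation, the question was whether the branches of these responses differ between them. The genes were 42 named members of these responses, and a probe was taken where its gene name on the array was that of a member. This gave 67 probes for 41 of the 42 genes, out of 30986 gene names on the array. For the 21 genes with several probes the brightest one is reported. Of their 21 other probes that were tested, 14 had a difference of the same sign as the brightest, and those that disagreed are named with the gene. The exception was MANF, a secreted factor of the stressed endoplasmic reticulum (ER), which the array lists under its older name ARMET.

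Single color Cy3 arrays were available for 4 RNA samples, 2 of vec and 2 of shpkp3-2. Both clones were stable transfectants of HCT116, vec with the vector and shpkp3-2 with a plasmid that encodes a short hairpin RNA against PKP3. The inhibitor was the selection agent of the clones, 5 μg/ml of puromycin according to the sample labels and blasticidin according to the methods of the study. The first sample of each clone came from one RNA collection and the second from another, later called the first and second collection. As 1 clone of each kind was used, a difference between the clones cannot be told apart from a difference due to the choice of clone, and the inhibitor was present in both. Nothing states that the 2 samples of a clone came from separate cultures, so p-values measure only the spread between these samples, which may be technical.

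In the following, a level is the log2 of the processed signal of a probe minus the 75th percentile of its array, and a difference is the shpkp3-2 level minus the vec level. The arrays had 75th percentiles of 374 to 381, with the exception of vec 1 at 499. Of the spots that are not controls, 60.5% to 63.5% were well above background, the flag of the scanner software for a signal clearly over the local background, and 0 spots were saturated. PKP3 itself had intensities of 20850 and 22840 on the vec arrays and of 3414 and 3078 on the shpkp3-2 arrays, a difference of -2.54 ± 0.23 (SE, adjusted p = 0.0188 by limma). The epithelial markers KRT8, KRT18, KRT19, CDH1 and EPCAM were well above background on all 4 arrays, while VIL1 was so on 1 array. Of 5 markers of other cell types, the 4 genes COL1A2, DCN, PTPRC and PECAM1 did not pass this flag on any array, and COL1A1 passed it on all 4, with intensities of up to 178.

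Unfolded proteins in the ER are sensed by the membrane proteins IRE1 (gene ERN1), PERK (EIF2AK3) and ATF6. IRE1 splices the mRNA of the transcription factor XBP1, ATF6 is cleaved to a transcription factor, and both raise chaperones, folding enzymes and the machinery of ER associated degradation. PERK phosphorylates the initiation factor eIF2, which lowers translation in general and favors that of ATF4, a transcription factor that raises genes for amino acid synthesis, amino acid transport and tRNA charging. The kinase GCN2 reaches ATF4 from a lack of amino acids without ER stress, so that the ATF4 genes are shared by both responses.

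Target genes of the ER branch and of ATF4 are known for different promoter elements, and a few are shown here since the gene groups below are named after these branches. The ER stress element ERSE, with the letters CCAAT and CCACG set 9 bases apart, was searched on both strands in the 250 bases before the gene start (RefSeq, GRCh38.p14). It was found for 7 of the 38 members with a promoter in the table and for 0.0916% of all 27305 genes. Some of these windows are printed with the fixed letters of the element in capitals, the CALR element on the opposite strand.
HSPA5, chr9:125241379-125241421, minus strand: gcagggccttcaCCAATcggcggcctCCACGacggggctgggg
HSP90B1, chr12:103930204-103930246, plus strand: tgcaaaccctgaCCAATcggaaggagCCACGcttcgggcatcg
CALR, chr19:12938372-12938414, plus strand: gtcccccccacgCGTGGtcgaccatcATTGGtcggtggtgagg
XBP1, chr22:28800591-28800633, minus strand: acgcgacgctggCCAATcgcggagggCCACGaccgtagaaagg

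The other members with an ERSE were CANX, CRELD2 and PDIA6. A shorter form, ERSE-II, in which ATTGG and CCACG are 1 base apart, was found for SDF2L1, HERPUD1 and HYOU1, against 0.0659% of all genes. Since SDF2L1 had the largest difference of all members, its window is shown beside that of HERPUD1, whose level was nearly equal in both clones. The element of SDF2L1 lies on the opposite strand.
SDF2L1, chr22:21642102-21642136, plus strand: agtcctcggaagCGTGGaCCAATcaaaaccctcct
HERPUD1, chr16:56932013-56932047, plus strand: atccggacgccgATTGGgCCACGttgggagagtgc

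The core of the UPRE, an element bound by XBP1 and ATF6, has the letters TGACGTGG and was found for 1 member, HYOU1, where it overlaps the ERSE-II, against 0.780% of all genes. The C/EBP-ATF response element, which ATF4 binds, was searched as TGATGNAA. It was found for ASNS, CHAC1, GARS and HERPUD1 among the members and for 3.89% of all genes. The windows of ASNS and CHAC1 are given as examples, with the CHAC1 element on the opposite strand.
ASNS, chr7:97872457-97872488, minus strand: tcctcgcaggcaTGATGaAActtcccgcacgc
CHAC1, chr15:40953250-40953281, plus strand: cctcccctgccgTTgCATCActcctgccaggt
A match of these letters describes the window and is not a measured binding site.

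Of the 41 genes, 40 passed the filter on dim probes (both arrays of vec or both of shpkp3-2 over background) and entered the test, and each of these passed it on all 4 arrays. None of the 40 was called by limma with Benjamini-Hochberg adjustment, where 0.39% of the 30512 probes tested were called. With 1 probe per gene, 0.277% of the 20244 genes tested were called higher and 0.153% lower in shpkp3-2. At an unadjusted p of 0.05, limma had 2 members higher (SDF2L1 and EDEM1) and 3 lower (DDIT3, PHGDH and SLC7A5), against 7.63% and 4.52% of all genes tested. The arrays of the clones did not overlap for 7 members higher in shpkp3-2 and for 12 lower, of 40. Over all genes tested the shares were 28.4% higher and 17.2% lower. The median difference of the members was -0.02, that of all genes tested 0.06, and 22 of the 40 members had a difference below 0, against 41.7% of all genes tested. For the brightest probe, the 95% intervals of 31 of the 40 members lay within a 2-fold change either way, and those of the other 9 reached past it. Some other probes of the 31 genes also reached past it, such as a dimmer ATF6 probe (-1.34 to 0.17) and the dimmest PDIA3 probe (-0.12 to 1.59). As these intervals rest on few arrays, whose spread may be technical, they do not exclude a larger difference between the clones.

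**Figure D1:**
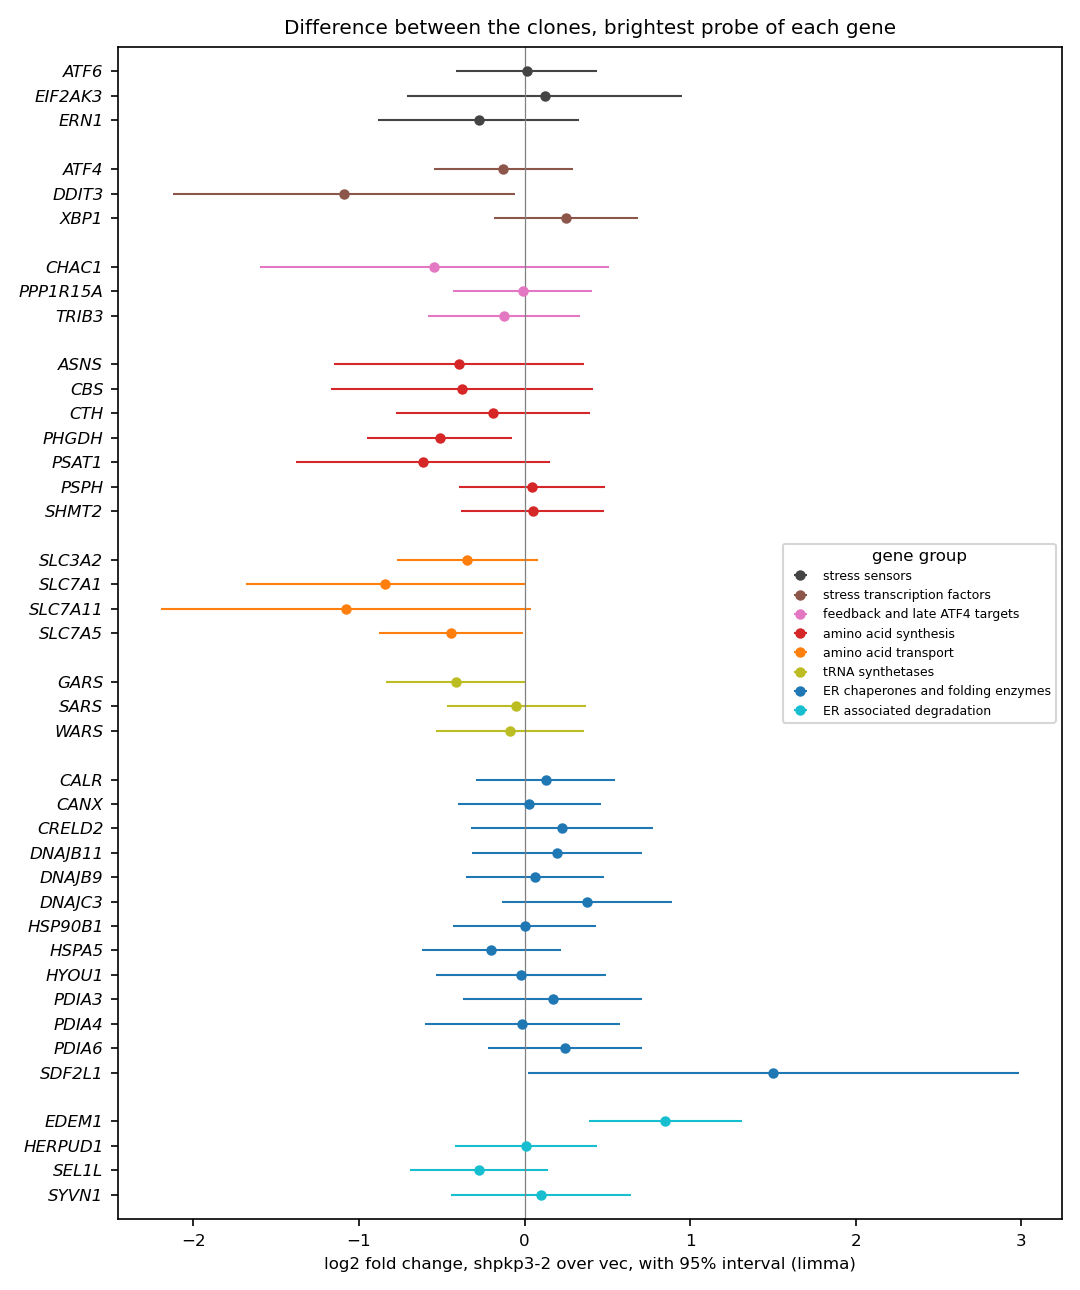
Difference between the clones for the 40 genes tested, as the log2 fold change of shpkp3-2 over vec (x axis) with its 95% interval from limma, for the brightest probe of each gene (y axis), colored by gene group. All 4 amino acid transporters lie below 0, while most chaperones lie close to it and SDF2L1 at 1.503 has the widest interval.

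For each of the 3 stress sensors the arrays of the clones overlapped, and limma called 0 of 3, also at an unadjusted p of 0.05. ATF6 had levels of 2.19 and 2.28 in vec and of 2.28 and 2.21 in shpkp3-2, where the first value of each clone is that of the first collection. Its difference was 0.01 ± 0.17 (SE, 95% interval -0.41 to 0.44), and its sign turned with the background correction and the scaling. A dimmer probe, named by a transcript of another database, had -0.59 ± 0.31 (adjusted p = 0.504 by limma), and its arrays did not overlap. EIF2AK3, which encodes PERK, had levels of -1.21 and -2.21 in vec and of -1.64 and -1.53 in shpkp3-2. The vec arrays thus enclosed the shpkp3-2 arrays, and the difference of 0.12 ± 0.34 had an interval of -0.71 to 0.95. ERN1, which encodes IRE1, had a level of 0.20 on vec 1, while vec 2 at -0.42 and the shpkp3-2 arrays at -0.38 and -0.40 were close to each other. Its difference was -0.28 ± 0.25. The accession of this probe, NM_152461, matched no RefSeq gene, so that its name rests on the array. The probe whose accession is that of ERN1, NM_001433, was above background on 2 of the 4 arrays and was not tested, with dim levels of -5.41 and -5.61 in vec and of -5.19 and -4.95 in shpkp3-2, in the opposite direction. A further detected probe had 0.05 ± 0.20.

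Among the transcription factors, ATF4 had levels of 7.88 and 7.89 in vec and of 7.73 and 7.79 in shpkp3-2. The arrays did not overlap, but the difference of -0.13 ± 0.17 had an adjusted p of 0.789 by limma. A dimmer probe of ATF4 had levels of 4.71 and 4.61 in vec and of 4.15 and 4.21 in shpkp3-2, a larger difference of -0.48 ± 0.17 (adjusted p = 0.365 by limma). ATF4 is controlled largely at the level of translation, which arrays do not measure. XBP1 had levels of 4.82 and 4.65 in vec and of 4.98 and 4.99 in shpkp3-2, a difference of 0.25 ± 0.18, and its arrays did not overlap. The difference was 0.34 without vec 1 and 0.16 without vec 2. A second XBP1 probe had a difference of 0.15 ± 0.17, also without overlap. The spliced form of the XBP1 mRNA was not told apart here.

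DDIT3, which encodes the proapoptotic factor CHOP downstream of ATF4, had the largest negative difference of the members over all arrays. Its levels were 0.10 and -1.02 in vec and -1.91 and -1.19 in shpkp3-2. Vec 2 and shpkp3-2 2 thus differed by -0.17, while vec 1 and shpkp3-2 1 differed by -2.01. The difference over all arrays was -1.09 ± 0.42, with an unadjusted p of 0.0416 and an adjusted p of 0.386 by limma. Without vec 1 it was -0.53, and without vec 2 it was -1.65, so that the size depended on which vec array was used.

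Among the feedback genes the vec arrays of CHAC1 also lay far apart. CHAC1, a glutathione degrading enzyme induced through ATF4, had levels of 3.18 and 2.04 in vec and of 1.69 and 2.44 in shpkp3-2. It was lowest on one shpkp3-2 array and highest on vec 1, and its difference of -0.54 ± 0.43 became 0.02 without vec 1 and -1.11 without vec 2, and was -0.17 and -0.92 without the first or the second shpkp3-2 array. TRIB3, a pseudokinase that restrains ATF4, was at 5.70 on vec 1 and between 5.41 and 5.46 on the other arrays, a difference of -0.12 ± 0.19. A dimmer TRIB3 probe had -0.36 ± 0.18 (adjusted p = 0.487 by limma) without overlap of the clones. PPP1R15A, the stress induced subunit of the eIF2 phosphatase, had nearly equal levels of -0.28 to -0.23 on the 4 arrays. VLDLR, a lipoprotein receptor raised through ATF4, did not pass the background flag on any array, with intensities of 2.21 and 2.29 in vec and of 7.35 and 4.64 in shpkp3-2, and was not tested.

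The amino acid transporters were the group with the lowest differences. All 4 were lower on both shpkp3-2 arrays than on either vec array, as were 17.2% of all genes tested, with a median difference of -0.64, while limma called 0 of 4, with SLC7A5 at an unadjusted p under 0.05. SLC7A11, the cystine importer of the xCT system, had levels of -0.78 and -2.003 in vec and of -2.87 and -2.07 in shpkp3-2. Its difference was -1.08 ± 0.46 (95% interval -2.20 to 0.04, adjusted p = 0.421 by limma), and a second detected probe had -0.82 ± 0.36. SLC7A1, an importer of arginine and lysine, had levels of 1.76 and 0.73 in vec and of 0.42 and 0.39 in shpkp3-2, a difference of -0.84 ± 0.34. For both genes vec 1 was higher than vec 2 by more than the difference between the clones, by 1.22 and 1.03. Without vec 1 the differences were -0.47 for SLC7A11 and -0.33 for SLC7A1, and without vec 2 they were -1.69 and -1.36. For SLC7A11 it was -0.68 without the first shpkp3-2 array and -0.72 with normexp background correction.

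The other transporters had a smaller and more even difference. SLC7A5, the exchanger LAT1 for large neutral amino acids, had levels of 3.13 and 3.22 in vec and of 2.81 and 2.65 in shpkp3-2. Its difference was -0.44 ± 0.18, with an unadjusted p of 0.0474 and an adjusted p of 0.401 by limma, and a dimmer probe had -0.17 ± 0.18. SLC3A2, the heavy chain shared by LAT1 and xCT, had levels of 4.95 and 4.83 in vec and of 4.55 and 4.53 in shpkp3-2. Its difference was -0.35 ± 0.17, and a second probe gave -0.42 ± 0.17. For SLC7A5 and SLC3A2 the levels of the vec arrays were within 0.12 of each other.

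Of the 7 genes of amino acid synthesis, 5 had a difference below 0 (41.7% of all genes tested), the median was -0.38, and limma called 0. PHGDH, the first enzyme of serine synthesis, was the one with an unadjusted p under 0.05, with levels of 6.57 and 6.53 in vec and of 5.94 and 6.13 in shpkp3-2. Its difference was -0.51 ± 0.18 (unadjusted p = 0.0290, adjusted p = 0.347 by limma), and its other 2 probes had -0.60 ± 0.20 and -0.49 ± 0.18. PSAT1, the next enzyme of that pathway, had levels of 4.47 and 3.58 in vec and of 3.32 and 3.49 in shpkp3-2. Its difference of -0.61 ± 0.31 was -0.17 without vec 1 and -1.06 without vec 2. The last enzyme, PSPH, had levels of 4.67 and 4.51 in vec and of 4.57 and 4.69 in shpkp3-2, and these overlapped. A similar bright probe had 0.09 ± 0.18, whereas the dimmest had -0.32 ± 0.19 without overlap of the clones.

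ASNS, asparagine synthetase, had levels of 6.86 and 6.09 in vec and of 5.86 and 6.30 in shpkp3-2, which overlapped, with a difference of -0.39 ± 0.31. It was -0.01 without vec 1 and -0.78 without vec 2, and -0.17 and -0.61 without the first or the second shpkp3-2 array. A dimmer second probe, named on the array by a cDNA clone, had a difference of the opposite sign, 0.42 ± 0.20, without overlap of the clones. SHMT2, the mitochondrial enzyme that draws one carbon units from serine, had levels of 5.55 to 5.70 on the 4 arrays, and the difference of its second probe was -0.10 ± 0.20. Cystathionine beta synthase, CBS, and cystathionine gamma lyase, CTH, of the path from homocysteine to cysteine, were highest on vec 1, and their other 3 arrays overlapped between the clones. CBS has a near-identical copy in the genome, CBSL, from which its probes may not be told apart, and its signal was dim.

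Of the 3 tRNA synthetases, limma called 0, and GARS, for glycine, had the largest difference. It had levels of 1.59 and 1.55 in vec and of 1.12 and 1.19 in shpkp3-2, a difference of -0.42 ± 0.17 (adjusted p = 0.410 by limma) with both pairs of arrays close together. SARS, for serine, was between 3.76 and 3.86 on all arrays and WARS, for tryptophan, between 2.28 and 2.52. Of 17 other cytosolic tRNA synthetases, limma called 0 and 1 had an unadjusted p under 0.05, 11 had a difference above 0 (58.3% of all genes tested) and the median was 0.10. The arrays of the clones did not overlap for 3 higher and 4 lower, against 28.4% and 17.2% of all genes tested. The median of this list was 0.02 without vec 1, 0.19 without vec 2 and -0.005 with quantile normalization.

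Vec 1 stood apart from vec 2 for many of the amino acid genes. Over the 11 genes of amino acid synthesis and transport, the vec 1 level was higher than that of vec 2 for 9, by a median of 0.43, whereas over all genes tested that median was -0.06. For 8 of the 11 the gap between the vec arrays was larger than the difference between the clones, as it was for 58.3% of all genes tested. The median difference of amino acid synthesis was -0.63 in the first RNA collection and 0.18 in the second, and that of amino acid transport was -0.87 and -0.32. Without vec 1 the medians were -0.01 for synthesis and -0.40 for transport, and all 4 transporters kept a difference below 0. The median of synthesis was also closer to 0 without the first shpkp3-2 array (-0.17), with normexp background correction (-0.22) and as the mean of the detected probes of each gene (-0.19). With quantile normalization or median centring all 7 synthesis genes were below 0. The 75th percentile of vec 1 was also higher than that of the other arrays, and its part in the levels was not tested.

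The 2 collections gave opposite signs for 21 of the 40 genes, against 44.7% of all genes tested. Of the others, 12 were lower in shpkp3-2 in both collections, against 21.8% of all genes, and 7 were higher in both, against 33.5%. EDEM1, DNAJC3, SDF2L1, XBP1 and PDIA6 were among the 7, and all 4 transporters were among the 12, with DDIT3, ATF4, PHGDH, PSAT1, GARS, SARS, SEL1L and HSPA5. The 12 and the 7 are the same members whose arrays did not overlap between the clones. Without overlap the sign is the same in both collections by definition. The collections are single pairs of arrays, so no error can be given for the difference within one.

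The ER chaperones and folding enzymes had a median difference of 0.13, with 10 of 13 above 0 against 58.3% of all genes tested, and limma called 0 of 13, with SDF2L1 at an unadjusted p under 0.05. With median centring 7 of the 13 were above 0 and the median was 0.06, where 48.8% of all genes tested were above 0. Without vec 1 the median was 0.01, also with 7 above 0, against 53.1% of all genes tested. SDF2L1, an ER protein that works with the chaperone BiP, was the member with the largest difference. Its levels were 5.58 and 7.56 in vec and 8.20 and 7.95 in shpkp3-2. Vec 1 was lower than vec 2 by 1.98, one of the 39 largest gaps between the vec arrays among the 20244 genes tested, and vec 2 was close to the shpkp3-2 arrays. The difference of 1.503 ± 0.60 (95% interval 0.02 to 2.99) had an unadjusted p of 0.0478 and an adjusted p of 0.401 by limma.

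SDF2L1 also was the single member that met the fold rule, a level on each shpkp3-2 array at least 1 above or below the vec mean with the probe well above background in the higher clone. This rule was met by 1.24% of the genes tested for higher levels and by 0.632% for lower ones. Without vec 1 the difference was 0.51 and the rule was not met by any member, and without vec 2 it was 2.50 with an adjusted p of 0.0357 by limma. With the RNA collection as a block the adjusted p of SDF2L1 by limma was 0.00792 at the same difference of 1.503. In that fit the SE was 0.34, drawn mostly from the spread of all probes (32.0 degrees of freedom in all against 5.94 without the block), while the differences of SDF2L1 in the collections were 2.62 and 0.38. It was the only member called with the block.

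HSPA5, the BiP chaperone and the usual marker of the unfolded protein response, had levels of 3.22 and 3.15 in vec and of 2.98 and 2.99 in shpkp3-2. The arrays did not overlap, and the difference of -0.20 ± 0.17 (95% interval -0.62 to 0.22, adjusted p = 0.660 by limma) was opposite in sign to that of SDF2L1. A second HSPA5 probe had -0.12 ± 0.17, also without overlap. HSP90B1, the chaperone GRP94, had levels of 7.50 and 7.65 in vec and of 7.61 and 7.55 in shpkp3-2. CALR, the lectin chaperone calreticulin, was between 5.39 and 5.56 on all arrays, higher in shpkp3-2 without overlap. A second HSP90B1 probe had a difference of -0.07 ± 0.17. The other ERSE genes CANX, CRELD2 and PDIA6 each had levels that spanned at most 0.54 over the 4 arrays. PDIA6 was higher in shpkp3-2 by 0.25 ± 0.19 (adjusted p = 0.630 by limma), and its arrays did not overlap. A dimmer CANX probe had -0.20 ± 0.20, and its arrays did not overlap. Genes with an ERSE or ERSE-II in the windows above thus included the largest positive difference of the members and others close to 0.

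The cochaperone DNAJC3 (P58IPK) had levels of 0.74 and 0.35 in vec and of 0.84 and 1.01 in shpkp3-2, a difference of 0.38 ± 0.21 (adjusted p = 0.526 by limma), which was 0.57 without vec 1 and 0.18 without vec 2. The other cochaperones DNAJB9 and DNAJB11 and the large chaperone HYOU1 had vec and shpkp3-2 means within 0.20 of each other. DNAJB9 was higher in shpkp3-2 by 0.06 ± 0.17, without overlap of the clones. The disulfide isomerase PDIA4 was highest on vec 1 at 3.57 and lowest on vec 2 at 2.996, with both shpkp3-2 arrays between them. For PDIA3, the isomerase ERp57, the probes differed in size, as the brightest had levels of 3.45 and 3.90 in vec and of 3.93 and 3.75 in shpkp3-2, and the dimmest had levels of 1.88 and 2.93 in vec and of 3.18 and 3.09 in shpkp3-2. The third PDIA3 probe had a difference of 0.03 ± 0.21. MANF, under the name ARMET, had levels of 7.02 and 7.26 in vec and of 7.44 and 7.30 in shpkp3-2 and is not counted above.

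Of the genes of ER associated degradation, EDEM1, a lectin that passes misfolded glycoproteins to degradation, had the smallest unadjusted p of all members. Its levels were -4.06 and -4.27 in vec and -3.41 and -3.21 in shpkp3-2, so that the clones did not overlap. The difference was 0.85 ± 0.19 (95% interval 0.39 to 1.31, unadjusted p = 0.00420, adjusted p = 0.191 by limma). The signal was dim, with intensities of 19.8 to 40.3 where the lowest signals well above background were 8.41 to 9.74. With normexp background correction the difference was 0.40. A second, similarly dim probe had 0.42 ± 0.45, and its vec levels of -3.37 and -4.78 enclosed those of shpkp3-2.

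SEL1L, the scaffold of the HRD1 ubiquitin ligase, had a difference in the other direction, with levels of -2.40 and -2.42 in vec and of -2.69 and -2.67 in shpkp3-2. Its difference was -0.27 ± 0.17 (adjusted p = 0.563 by limma), and it was -0.09 with normexp background correction. The ligase itself, SYVN1, had levels of 2.12 and 1.63 in vec and of 1.94 and 2.01 in shpkp3-2, its second probe had 0.24 ± 0.21, and the ubiquitin-like membrane protein HERPUD1 was between 5.66 and 5.79 on all arrays.

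Further genes of the same pathways were taken as lists beside the members. Of 25 other ATF4 and amino acid response genes, 21 were tested, 15 had a difference below 0 (41.7% of all genes tested), the median was -0.24 and the arrays of the clones did not overlap for 7 lower and 1 higher (17.2% and 28.4% of all genes tested). Vec 1 stood apart in this list too. The level of vec 1 was above that of vec 2 for 16 of the 21, by a median of 0.30, and for 16 the gap between the vec arrays was larger than the difference between the clones (58.3% of all genes tested). The medians were -0.42 in the first collection and -0.08 in the second. The median of the list was -0.08 without vec 1, -0.40 without vec 2 and -0.14 with normexp background correction. One gene of the list was called, NUPR1, a small stress induced chromatin protein and ATF4 target. NUPR1 had levels of -1.95 and -2.03 in vec and of -3.67 and -3.56 in shpkp3-2. It was lower by -1.63 ± 0.17, with an adjusted p of 0.0345 by limma, and met the fold rule. Its vec arrays were within 0.08 of each other, and the collections gave differences of -1.73 and -1.53. With normexp background correction its difference was -0.76 and its adjusted p was 0.0668 by limma. Under 6 of 13 alternatives its adjusted p was above 0.05. It was 0.212 with no filter on detection, 0.169 with the weaker detection flag, and also above 0.05 without vec 2 (0.0565), without the first shpkp3-2 array (0.0984) and without the second (0.0577).

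The list of 41 other unfolded protein response genes also held genes of protein entry into the ER and of secretory transport. Its counts thus do not describe stress response genes alone. All 41 genes were tested, 36 had a difference above 0 (58.3% of all genes tested) and the median was 0.25. The arrays of the clones did not overlap for 25 of them higher in shpkp3-2 and for 1 lower, against 28.4% and 17.2% of all genes tested. At an unadjusted p of 0.05, limma had 7 of the 41 higher and 0 lower, against 7.63% and 4.52% of all genes tested. The medians of this list were 0.25 in the first collection and 0.30 in the second, and it was 0.30 without vec 1. One gene was called, DNAJC1, an ER membrane cochaperone of BiP, with levels of 1.72 and 1.72 in vec and of 3.12 and 3.20 in shpkp3-2. Its difference was 1.45 ± 0.17, with an adjusted p of 0.0451 by limma, and it also met the fold rule. This adjusted p was above 0.05 under 7 of 13 alternatives, where it reached at most 0.236, among them those without vec 2 (0.0666), without the first shpkp3-2 array (0.123) and without the second (0.133).

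Among 21 other ER associated degradation genes, 20 were tested, with a median of 0.20 and 9 higher and 2 lower without overlap, against 28.4% and 17.2% of all genes tested. Their median was 0.11 without vec 1, 0.25 without vec 2, 0.12 with quantile normalization and 0.13 with median centring. The 11 genes listed as other eIF2 kinases and phosphatase subunits had a median of 0.05, which was -0.04 without vec 1, 0.15 without vec 2 and -0.02 with median centring. This list also held EIF2B1 to EIF2B5, EIF2S1 and NCK1, which are neither. Its kinases EIF2AK1, EIF2AK2 and EIF2AK4 had differences of -0.22, 0.05 and -0.20, and the phosphatase subunit PPP1R15B had -0.31. The 16 cytosolic heat shock genes tested had a median of 0.03, and for 14 of them, against 58.3% of all genes tested, the gap between the vec arrays was larger than the difference between the clones. Their median level was lower on vec 1 than on vec 2 by -0.55, the opposite direction to the amino acid genes. In these 3 lists limma called 0 genes, with 2, 0 and 0 at an unadjusted p of 0.05.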

How the data were processed

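RNA of 4 samples was hybridized to single color arrays, and the authors deposited the Agilent Feature Extraction output (version 9.1 in the processing notes, 10.7.3.1 in the file headers). The deposited intensity of each spot is on a linear scale after detrending and background subtraction, with no scaling between arrays. The deposited mean and local background intensities and the flags, which are another kind of value, were used for alternatives and for filters. Groups came from the sample labels.

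Control spots and nonuniformity outliers (26 to 39 per array) were left out, the log2 of the intensity minus the 75th percentile of the array was taken, and spots of a probe were averaged. Probes whose spots the software flagged as well above background on either both vec or both shpkp3-2 arrays, 30512 in all, entered lmFit and eBayes of limma 3.58.1 (R 4.3.3), with Benjamini-Hochberg adjustment over these probes and a threshold of 0.05. An exact permutation test of 2 arrays against 2 cannot give a two-sided p under 0.333. The number of arrays limits the precision. Python 3.11.15, pandas 2.3.3, scipy 1.17.1 and matplotlib 3.10.9 were used for tables and figures.

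The series text pairs same-numbered arrays by RNA collection. The deviations of paired arrays from the means of their clones correlated at -0.199 across 30512 probes. All 4 arrays lay on 1 slide, where position and clone cannot be told apart. Alternatives were normexp background correction (offset 50), quantile normalization, median centring, other detection filters, the replicate block, 1 probe or the mean of the detected probes per gene, a 1.5-fold rule and each array left out. The member genes, lists and motifs were chosen with earlier results of these data known. Members called, meeting the fold rule or with an unadjusted p under 0.05, the 8 largest differences and the main sensors and factors were to be given in full, and of other lists only genes called or meeting the fold rule are named. Member names were matched to RefSeq symbols (GRCh38.p14). The accession named the same gene for 63 of 67 probes, and promoters were matched for 38 of 42 members.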

Additional observations from a re-analysis of the deposited data

How the results depend on the processing

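limma called 0 members in the comparison as reported and 1 with the RNA collection as a replicate block (SDF2L1). With an array left out the count lay between 0 and 1, the 1 being SDF2L1 without vec 2, and the count was 0 under the other alternatives run. The pairing by collection changed no other call of a member. A crossed pairing, chosen after seeing the data, gave 0 members, with 64 probes higher and 40 lower, against 75 and 44 without a block and 503 and 338 with the block by collection. The fold rule was met by 1 member, by 2 with no filter on detection or with the weaker flag (VLDLR in addition), by 5 at 1.5-fold (DDIT3, EDEM1, SLC7A1 and SLC7A11 in addition) and by 0 to 4 with an array left out, of which 0 without vec 1, 4 without vec 2 and 3 without shpkp3-2 2. The median of the members was -0.017, and it was -0.13 with quantile normalization, -0.0873 with median centring and between -0.0889 and -0.013 with an array left out. Leaving SDF2L1 out, an alternative chosen after seeing the data, gave -0.0221.

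The sign of some differences turned, among them those of CHAC1, ASNS and ERN1, which were not near 0 over all arrays. That of ATF6 was -0.0444 with normexp background correction, -0.0374 with quantile normalization, -0.0573 with median centring and -0.29 as the mean of its detected probes, and that of ASNS was 0.0133 as such a mean. With an array left out, the difference lay between -0.0331 and 0.0588 for ATF6, between -1.11 and 0.0225 for CHAC1, between -0.38 and 0.63 for EIF2AK3, between -0.59 and 0.0335 for ERN1 and between -0.26 and 0.00959 for TRIB3. Differences of 0.25 or less also moved with the scaling, as that of ATF4 was -0.28, that of TRIB3 -0.24 and that of XBP1 0.15 with quantile normalization. In an arm with 1 array left, that array is assumed to vary like the other clone. The cause of these changes was not tested.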
